A study of Arabidopsis thaliana with 18 samples.

Results

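The genes described here rose 1 h after Arabidopsis thaliana seedlings were moved to medium without phosphate and were back near their starting level at 2 h, in both of the natural accessions (ecotypes) studied. They were chosen by a rule on the measured values. For each feature listed in all 18 count tables, the reads were expressed as counts per 1000000 reads of the library (CPM, unscaled), averaged over the 3 libraries of a group, and compared as log2 of the ratio of (mean CPM + 1). A gene was kept if this change was at least 1 at 1 h in Columbia (Col) and in Landsberg erecta (Ler), and between -0.5 and 0.5 at 2 h in both. Several families of jasmonate synthesis, jasmonate response and stress genes were left out by name. The limits were met by 66 of 32852 features, of which LOX3, AOS and CYP94C1 were left out by name, so 63 genes remained. Because the added 1 CPM pulls the ratio of scarce transcripts towards 0, these changes understate those of genes with low counts.

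Plant cells switch on a first set of genes within minutes of a touch, a wound, a change of medium or a pathogen signal. Many of the transcripts made in this first phase are short-lived, so a gene that is transcribed only briefly returns quickly to its starting level. Typical products are calcium sensors, receptor kinases, ubiquitin ligases, transcription factors and enzymes that make or remove hormones such as auxin, which in the root tip sets the pace and pattern of growth.

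The study, titled around noncoding RNA in the adaptation of root growth to low phosphate, compared 6 groups of 3 libraries each, which the design text calls biological replicates; each combined 1 of the wild-type ecotypes with 1 time. All seedlings were sown in lines of many seeds on nylon mesh and grown for 7 days on dilute Murashige and Skoog medium with 500 µM phosphate. For the 1 h and 2 h groups the mesh was moved to the same medium without phosphate. For the 0 h groups the protocol text describes a move to new medium with phosphate, while the treatment field of these libraries says that there was none. Root apices of about 0.5 cm, pooled from many plants, were frozen and their poly(A) RNA was sequenced by a stranded, paired-end protocol. None of the 18 libraries is labelled as left on phosphate until 1 h or 2 h, and harvest clock times are not given. Phosphate removal, the move itself and time of day therefore cannot be told apart. P-values measure the spread between these libraries, which is in part technical if a group's libraries came from the same plates.

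The libraries held 23451068 to 29277597 counted reads, so 3 reads, taken here as the floor, equal 0.102 to 0.128 CPM. Of 8 root apex markers, SHR, SCR, PLT1, PLT2, SMB, BRN1 and BRN2 were present in every group, whereas WOX5, a gene of the quiescent centre, averaged 0.705 CPM in Col and 1.3 in Ler at 0 h and 8.80 and 16.6 at 1 h. The summed CPM of these markers was 141 to 172 in Col at 0 h, 180 to 230 at 1 h and 186 to 217 at 2 h, and 193 to 213, 222 to 236 and 162 to 208 in Ler. Those of 4 root hair and mature root markers were 679 to 784, 405 to 634 and 525 to 576 in Col and 363 to 464, 294 to 437 and 423 to 684 in Ler. Those of 8 shoot and leaf markers, of which RBCS1B and RBCS2B were near 0, ranged from 23.1 to 139 over all libraries and were lower at 2 h than at 0 h in all libraries of each ecotype, while 1 h and 0 h overlapped in both. The part of these markers in the results below was not tested. In bulk RNA, fewer cells of a type and less RNA per cell cannot be told apart.

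Together the 63 genes took 1025, 1006 and 903 CPM in the Col libraries at 0 h (replicates 1, 2 and 3), 2202, 4074 and 2015 at 1 h and 1094, 1104 and 1033 at 2 h. In Ler their sum was 1006, 904 and 892 CPM at 0 h, 2830, 3007 and 2088 at 1 h and 1070, 1245 and 1077 at 2 h. The 1 h libraries were the highest in both ecotypes, and Col replicate 2 was the highest of all 18. The rule selects for high 1 h means of each gene, though not for each library. At 2 h every Col and Ler sum was above every 0 h sum of the same ecotype, by a small margin. The median change at 1 h was 1.40 in Col (range 1.02 to 2.48) and 1.32 in Ler (range 1.00 to 2.44) on the log2 scale of the rule. At 2 h the median was 0.17 in Col (range -0.49 to 0.47) and 0.28 in Ler (range -0.18 to 0.49). The part of the 1 h gain in mean CPM still present at 2 h had a median of 6.96% in Col and 12.6% in Ler.

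**Figure D1:**
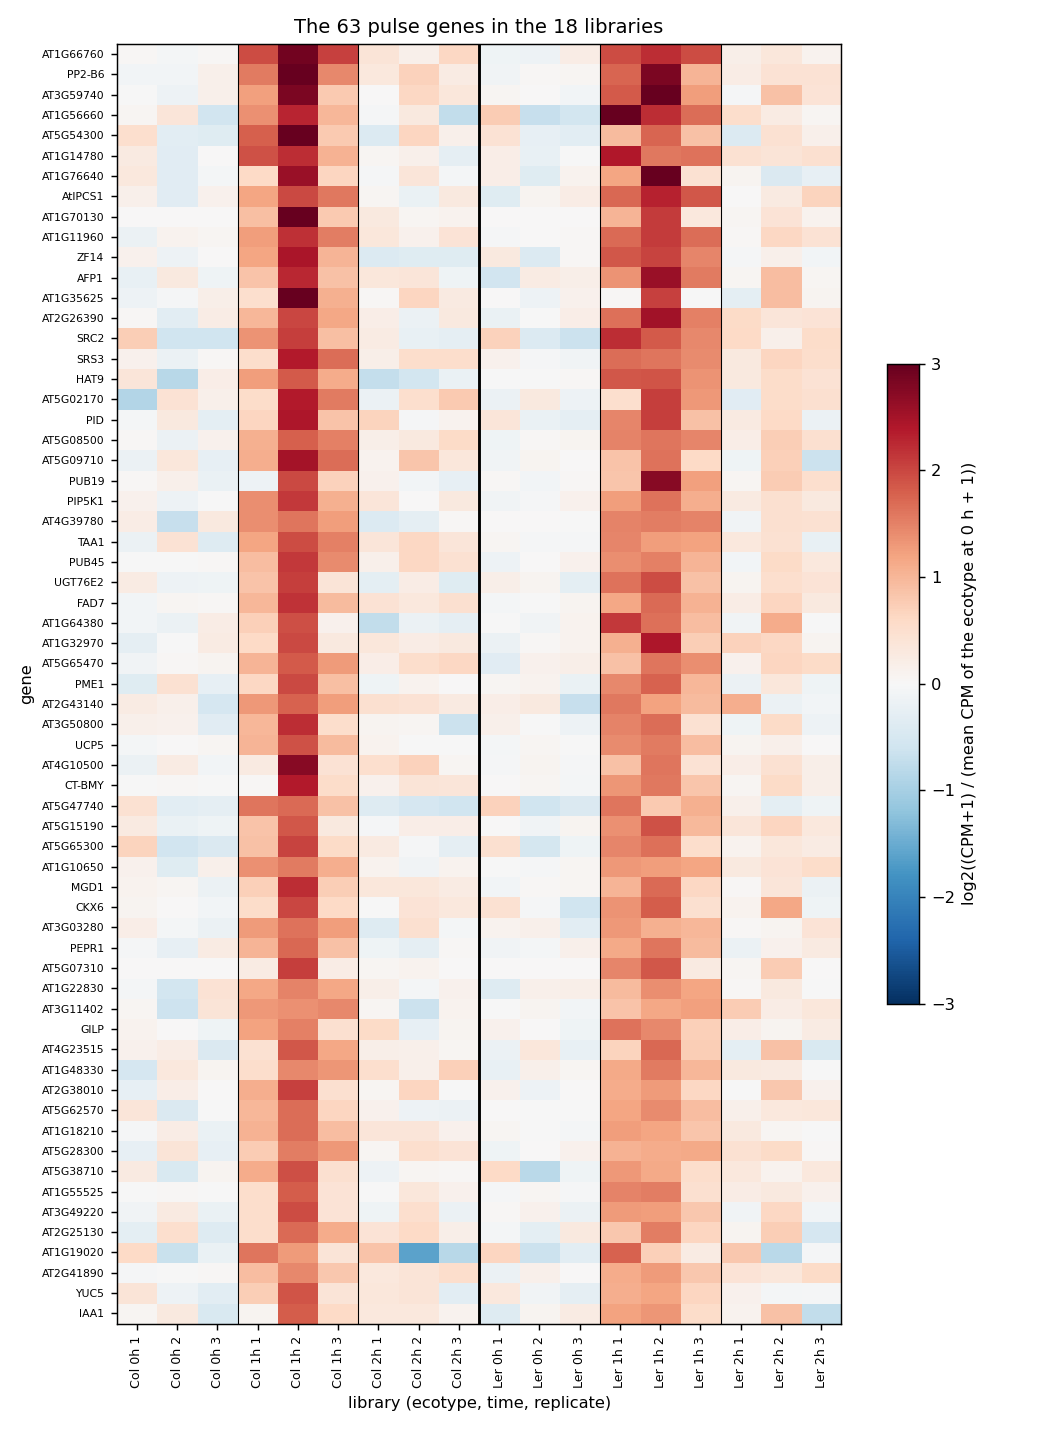
Each row is a pulse gene, each column a library, and the colour is log2 of (CPM + 1) over (mean CPM at 0 h of the same ecotype + 1), with colours capped at 3 in either direction. The 6 columns at 1 h are dark in both ecotypes, darkest in Col replicate 2, and the 2 h columns are close to those at 0 h.

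The 1 h libraries stood apart from those at 0 h for most of the genes, while 0 h and 2 h overlapped for most. All 3 Col libraries at 1 h were above all 3 at 0 h for 57 genes, and all 3 Ler libraries for 60, against 11.1% and 12.2% of the 20599 features tested. This held in both ecotypes for 55 genes (6.43% of features tested), and nothing is read from these counts since the rule used these values. At 1 h all 3 libraries were above all 3 at 2 h for 49 genes in Col (7.28% of features) and 48 in Ler (12.2%). For 39 genes the 1 h libraries stood above those of both other times in both ecotypes. The share of all features was not computed for this count, and nothing is read from it either. At 2 h, 13 genes in Col (16.2% of features) and 19 in Ler (9.70%) had all libraries above those at 0 h, while 3 in Col (11.6%) and 0 in Ler (14.1%) had all libraries below.

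All 63 genes passed the filter on low counts, and edgeR's quasi-likelihood test, with Benjamini-Hochberg adjustment over all 20599 features, is given here as a description. At 1 h it called 55 of them higher in Col, against 5.35% of all features, and 46 in Ler, against 4.26%. Averaged over the ecotypes it called 62, against 9.76%, the exception being AT1G19020. At 2 h edgeR called 0 of the 63 in either ecotype (6.39% of features in Col and 2.80% in Ler). An unadjusted p under 0.05 in edgeR was found for 2 in Col and 8 in Ler, against 5274 and 3223 of the 20599 features. DESeq2 called 0 of the 63 in Col and 2 in Ler. Of all features it called 1085 higher and 1400 lower of 21098 in Col, and 920 and 318 of 21597 in Ler.

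The rise at 1 h was commoner than the return. A rise of at least 1 was found in 603 features in Col, 630 in Ler and 431 in both, and 242 of the 431 were above the upper limit of 0.5 at 2 h in both ecotypes. Another 98 were within the limits in Col but above in Ler, and 21 were within them in Ler but above in Col. The limits fell inside a continuous spread of values. For the rise, IAA1 (1.02) and AT1G55525 (1.07) were just inside in Col and HB6 (0.998) and AT2G42150 (0.98) just outside, while YUC5 (1.00) and AT5G38710 (1.03) were just inside in Ler and AT5G22355 (0.98) and AT1G15640 (0.98) just outside. For the return, AT1G48330 (0.47) and AT5G65470 (0.46) were just inside the upper limit in Col, and AT2G25460 (0.501) and AT4G33905 (0.502) just outside. AT5G47740 (-0.49) and HAT9 (-0.48) were just inside the lower limit in Col, and AT1G05650 (-0.52) and CYP707A3 (-0.75) just outside. In Ler, AT5G08500 and SRS3 (both 0.49) were just inside the upper limit and JRG21 and AT1G54870 (both 0.51) just outside, and AT1G76640 (-0.18) and AT5G47740 (-0.08) lay nearest to the lower limit.

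**Figure D2:**
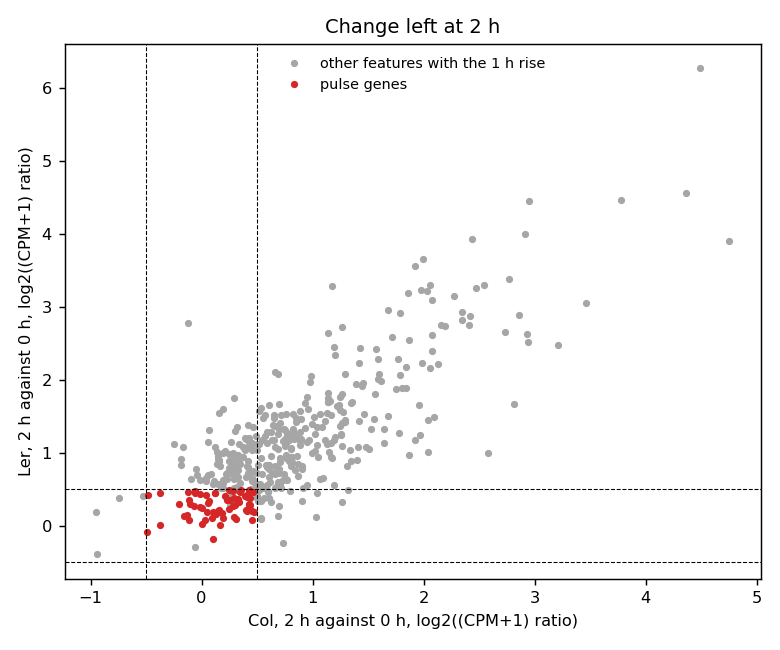
Each point is one of the 431 features that rose by at least 1 at 1 h in both ecotypes, plotted by its change at 2 h in Col (x axis) and in Ler (y axis), as log2 of the ratio of (mean CPM + 1), with the limits of -0.5 and 0.5 dashed. The pulse genes (red) lie inside the box around 0, in Ler only between -0.18 and 0.49. Apart from LOX3, AOS and CYP94C1, which lie inside it too, the other features extend from its edge without a gap.

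Of the genes of auxin and cytokinin, 5 were among the 63. TAA1, the tryptophan aminotransferase that makes the auxin precursor indole-3-pyruvate, read 19.7, 30.4 and 16.8 CPM at 0 h, 52.2, 89.7 and 65.4 at 1 h and 29, 34.8 and 29 at 2 h in Col. In Ler TAA1 read 22.7, 21.2 and 21.2 CPM at 0 h, 61.7, 52.8 and 51.5 at 1 h and 27.1, 30.3 and 18.3 at 2 h. At 1 h every library was above all those of the other times of its ecotype, with means of 69.1 ± 19 CPM in Col and 55.4 ± 5.51 in Ler (SD, n = 3), while 0 h and 2 h overlapped. YUC5, a flavin monooxygenase of the family that turns this precursor into auxin, read 4.18, 2.55 and 2.17 CPM at 0 h, 5.64, 13.7 and 4.2 at 1 h and 4.03, 4.16 and 2.2 at 2 h in Col. YUC5 in Ler read 3.49, 2.35 and 2.00 CPM at 0 h, 6.75, 7.28 and 4.67 at 1 h and 2.95, 2.45 and 2.53 at 2 h. Its 1 h libraries stood clear of both other times in Ler, where its change of 1.00 was the smallest of the 63. In Col, replicate 3 at 1 h (4.2 CPM) barely exceeded the highest libraries at 0 h (4.18) and 2 h (4.16).

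IAA1, an auxin-induced repressor of auxin responses, read 7.33, 8.8 and 4.86 CPM at 0 h, 7.51, 27 and 11.1 at 1 h and 8.99, 8.97 and 7.56 at 2 h in Col and so overlapped between all times there. In Ler IAA1 read 5.01, 7.2 and 8.21 CPM at 0 h, 17, 18.5 and 10.4 at 1 h and 7.43, 13.3 and 3.7 at 2 h, and only 0 h and 1 h were separated. PID, the kinase that directs auxin transporters to one side of the cell, averaged 2.55 ± 0.73, 9.41 ± 7.6 and 3.33 ± 1.18 CPM at 0, 1 and 2 h in Col (SD, n = 3). PID in Ler averaged 2.38 ± 0.869, 8.9 ± 4.02 and 3.06 ± 1.08 CPM. CKX6, an enzyme that breaks down cytokinin, changed at 1 h by 1.22 in Col and 1.32 in Ler on the rule's scale.

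Auxin synthesis genes did not all rise at 1 h. Averaged over ecotypes, edgeR called YUC3 higher too (log2 change 0.43), but TAR2 (-1.15) and YUC7 (-0.96) lower. Both auxin synthesis genes among the 63 are shown with the bases before their RefSeq start, since they act one after the other. The stretches cover 250 bases up to the gene start in the TAIR10.1 assembly, are written 5′ to 3′ on the gene's strand, and overlap no other listed gene. Capitals mark letters of 6 motifs searched for on both strands. The motif of CAMTA factors was CGCGTT and the G-box was CACGTG. The W-box was searched as TTGACC and also, separately, as TTGACT. The box bound by ERF factors was GCCGCC, and the core of the dehydration response element was CCGAC. TAA1 (chr1:26604605-26604854, plus strand) has 1 W-box. YUC5 (chr5:17650376-17650625, minus strand) has 1 CAMTA-type site in reverse orientation, at its very end.
TAA1: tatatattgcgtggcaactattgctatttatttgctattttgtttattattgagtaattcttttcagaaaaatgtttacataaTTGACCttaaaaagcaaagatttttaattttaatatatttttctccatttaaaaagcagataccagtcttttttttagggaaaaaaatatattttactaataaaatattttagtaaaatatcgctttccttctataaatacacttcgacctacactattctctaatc
YUC5: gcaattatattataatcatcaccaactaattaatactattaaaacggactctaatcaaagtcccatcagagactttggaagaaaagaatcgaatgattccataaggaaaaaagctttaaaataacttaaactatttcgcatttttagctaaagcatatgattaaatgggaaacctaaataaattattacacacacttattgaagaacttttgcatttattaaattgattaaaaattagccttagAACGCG

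Transcription factors and their regulators made up 9 of the genes. AT4G39780, an AP2/ERF-type factor, was among the steadiest at 1 h. AT4G39780 read 15.1, 7.54 and 15.9 CPM at 0 h, 35.1, 41.4 and 31.8 at 1 h and 9.45, 10.5 and 13.2 at 2 h in Col. In Ler AT4G39780 read 11.1, 11 and 11 CPM at 0 h, 32.8, 33.8 and 32.8 at 1 h and 10.2, 15.8 and 15.6 at 2 h. The 1 h libraries were above all others of their ecotype, and in Ler the highest and lowest of them were 33.8 and 32.8 CPM. AT1G64380, of the same family, read 3.58, 3.35 and 4.73 CPM at 0 h, 7.04, 17.7 and 4.34 at 1 h and 1.94, 3.34 and 3.05 at 2 h in Col, where replicate 3 at 1 h was below the highest 0 h library. AT1G64380 in Ler read 4.93, 4.6 and 5.45 CPM at 0 h, 25.2, 17.7 and 10.4 at 1 h and 4.55, 11.9 and 4.97 at 2 h.

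ERF115 (AT5G07310), an ERF factor known from root stem cell replenishment after damage, had 0 reads in all 6 libraries at 0 h. At 1 h ERF115 read 0.195, 3.2 and 0.171 CPM in Col and 1.77, 2.62 and 0.214 in Ler, and at 2 h 0.0359, 0.0815 and 0 and 0.0373, 0.705 and 0. The 1 h values were above 0 h in every library, but in Ler replicate 3 at 1 h was below replicate 2 at 2 h, and in Col replicate 2 alone was far above the floor. HAT9, a homeodomain-leucine zipper protein, read 7.68, 2.76 and 6.78 CPM at 0 h, 15.1, 23 and 13.6 at 1 h and 3.09, 3.59 and 4.82 at 2 h in Col. HAT9 in Ler read 6.6, 6.63 and 6.95 CPM at 0 h, 26.9, 27.4 and 18.6 at 1 h and 8.47, 10.2 and 9.39 at 2 h, with all 2 h libraries above those at 0 h, unlike in Col, where they overlapped.

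SRS3, of the SHI-related family, whose members are known activators of auxin synthesis genes, read 0.341, 0.0838 and 0.256 CPM at 0 h, 0.778, 5.41 and 2.9 at 1 h and 0.395, 0.774 and 0.772 at 2 h in Col. SRS3 in Ler read 1.05, 0.833 and 0.729 CPM at 0 h, 4.94, 4.66 and 4.03 at 1 h and 1.31, 1.91 and 1.68 at 2 h. The 1 h libraries were above all others in each ecotype, though in Col replicate 1 (0.778 CPM) barely exceeded the highest 2 h library (0.774). Those at 2 h stayed above 0 h in both. The trihelix-type AT5G28300, the bHLH gene AT2G43140, the calmodulin-binding AT5G62570 (CBP60a) and AFP1, which binds the abscisic acid factor ABI5, changed at 1 h by 1.24, 1.47, 1.17 and 1.49 in Col and by 1.1, 1.26, 1.19 and 1.95 in Ler. AT5G28300 in Ler was even at 1 h, at 19.8, 21.1 and 21.3 CPM, whereas AFP1 there read 14.5, 35.8 and 17 CPM.

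Calcium sensors, lipid signal enzymes and receptors accounted for 10 genes. PIP5K1, a kinase that makes a phosphoinositide acting as a membrane signal, read 73.4, 60.1 and 66.1 CPM at 0 h, 175, 292 and 141 at 1 h and 85.9, 67.2 and 82 at 2 h in Col. PIP5K1 in Ler read 54.8, 57.5 and 64.9 CPM at 0 h, 142, 184 and 126 at 1 h and 71.4, 83.2 and 72.3 at 2 h. Its 1 h libraries stood clear of both other times, with means of 203 ± 78.8 CPM in Col and 151 ± 29.9 in Ler (SD, n = 3). PEPR1, the receptor of Pep peptides released on wounding, read 51.8, 44.5 and 63.5 CPM at 0 h, 109, 178 and 98.5 at 1 h and 48.8, 44.1 and 54.2 at 2 h in Col. PEPR1 in Ler read 41.8, 43 and 50.2 CPM at 0 h, 99.5, 139 and 88.5 at 1 h and 39.7, 49.1 and 54.7 at 2 h. At 1 h all libraries were above the rest, and 2 h overlapped with 0 h in both ecotypes.

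The calmodulin-like CML39 (AT1G76640) read 1.58, 0.628 and 0.981 CPM at 0 h, 2.14, 11.4 and 2.22 at 1 h and 1.01, 1.67 and 0.965 at 2 h in Col. CML39 in Ler read 1.44, 0.652 and 1.27 CPM at 0 h, 3.83, 18.4 and 1.89 at 1 h and 1.23, 0.58 and 0.800 at 2 h. Although the 1 h libraries did not overlap with the others, replicate 2 carried most of the rise in both ecotypes. The EF-hand calcium-binding protein AT1G18210 read 66.8, 80.2 and 59.3 CPM at 0 h, 142, 224 and 131 at 1 h and 88.6, 88.9 and 75.3 at 2 h in Col. AT1G18210 in Ler read 82.5, 78.8 and 76.7 CPM at 0 h, 190.2, 182 and 143 at 1 h and 97.1, 82.9 and 78.6 at 2 h, so that 1 h stood clear of both times in each ecotype. SRC2, a C2-domain protein of cold-responsive type, was uneven already at 0 h, with 93.4, 36.4 and 36.1 CPM in Col and 71.7, 33 and 27.7 in Ler, and reached 142, 237 and 104 and 209.8, 162 and 121 at 1 h.

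The L-type lectin receptor kinase AT3G59740 (LecRK-V.7) read 0.469, 0.335 and 0.64 CPM at 0 h, 2.45, 9.51 and 1.54 at 1 h and 0.503, 1.26 and 0.888 at 2 h in Col. LecRK-V.7 in Ler read 0.311, 0.253 and 0.192 CPM at 0 h, 3.47, 9.16 and 1.96 at 1 h and 0.224, 1.28 and 0.674 at 2 h. Replicate 2 was the highest at 1 h in both ecotypes, and 2 h overlapped with 0 h. LecRK-V.2 (AT1G70130) had 0 reads in every 0 h library and read 0.856, 9.47 and 0.717 CPM in Col and 1.03, 3.31 and 0.25 in Ler at 1 h, of which Ler replicate 3 was below Ler replicate 2 at 2 h. AT1G11960, annotated as an early-responsive-to-dehydration membrane protein, read 9.34, 11.7 and 11.2 CPM at 0 h, 27, 52.9 and 32.9 at 1 h and 13.8, 11.9 and 14.5 at 2 h in Col. AT1G11960 in Ler read 11.3, 11.9 and 12 CPM at 0 h, 40.5, 53.2 and 39.7 at 1 h and 12, 18.7 and 16.2 at 2 h, and in both ecotypes its 2 h libraries stayed above those at 0 h. The lectin protein AT2G41890 and the TIR-domain protein AT4G23515 changed at 1 h by 1.08 and 1.28 in Col and by 1.08 and 1.13 in Ler.

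**Figure D3:**
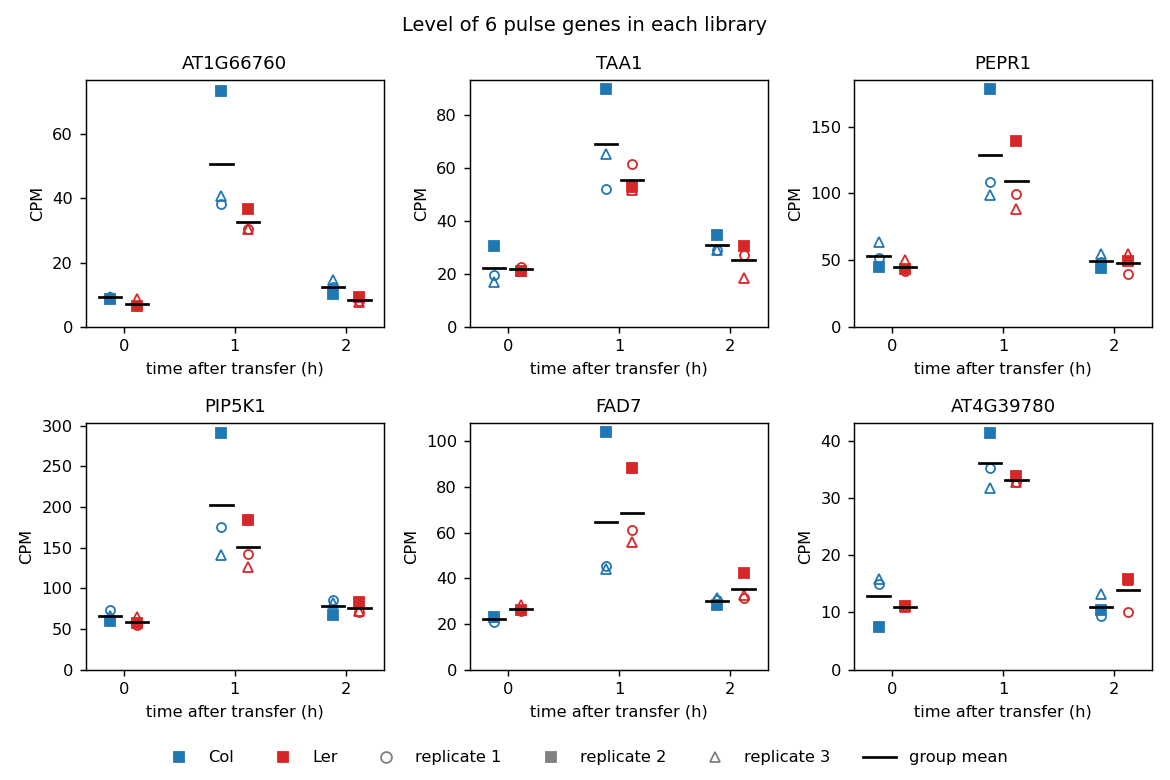
Each panel shows 1 gene, with CPM on the y axis and hours after transfer on the x axis; each symbol is a library, its shape the replicate number, its colour the ecotype, and the line the mean of 3 libraries. In all 6 panels every 1 h library lies above every 0 h and 2 h library of its ecotype, and Col replicate 2 is the highest at 1 h.

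Proteins of ubiquitin ligase type numbered 5. PUB45, a U-box ligase, read 15.9, 15.9 and 16.5 CPM at 0 h, 31.6, 73.5 and 44.7 at 1 h and 18, 25.5 and 22.3 at 2 h in Col. PUB45 in Ler read 17.7, 19.7 and 21.4 CPM at 0 h, 53.2, 57.3 and 40.7 at 1 h and 18.5, 29.5 and 24.8 at 2 h, and 1 h was clear of both other times in each ecotype. PUB19, a U-box ligase known to dampen abscisic acid responses, read 2.64, 2.97 and 2.13 CPM at 0 h, 2.22, 13.2 and 4.75 at 1 h and 2.91, 2.4 and 2.01 at 2 h in Col, where replicate 1 at 1 h lay within the 0 h range. PUB19 in Ler read 1.9, 1.67 and 1.88 CPM at 0 h, 4.02, 17.7 and 5.57 at 1 h and 1.94, 3.81 and 2.99 at 2 h and was separated from both times. AT1G10650, a RING-type S-ribonuclease binding protein, was even between libraries, with 28.1, 19.7 and 28.7 CPM at 0 h, 67.8, 77 and 55.8 at 1 h and 27.7, 23.8 and 27.4 at 2 h in Col. AT1G10650 in Ler read 23.3, 23.1 and 24.7 CPM at 0 h, 60.2, 57.6 and 54.9 at 1 h and 29.3, 31.8 and 35 at 2 h, where all 2 h libraries remained above those at 0 h.

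PP2-B6, annotated as a phloem protein of the F-box-containing PP2-B group, read 0.171, 0.168 and 0.384 CPM at 0 h, 2.65, 9.61 and 2.39 at 1 h and 0.539, 1.02 and 0.463 at 2 h in Col. PP2-B6 in Ler read 0, 0.109 and 0.115 CPM at 0 h, 2.58, 6.66 and 1.18 at 1 h and 0.261, 0.456 and 0.463 at 2 h, at or under the floor of 3 reads in all libraries at 0 h. The RING-type AT1G35625 reached 0.584, 12.7 and 1.33 CPM in Col and 0.258, 4.09 and 0.214 in Ler at 1 h, so that in Ler only replicate 2 exceeded all 0 h libraries. PUB19 is shown because its stretch of 250 bases before the start holds 3 G-boxes and 1 dehydration response core (chr1:22198016-22198265, plus strand, TAIR10.1, no overlap with another listed gene). The letters in capitals are these motifs.
PUB19: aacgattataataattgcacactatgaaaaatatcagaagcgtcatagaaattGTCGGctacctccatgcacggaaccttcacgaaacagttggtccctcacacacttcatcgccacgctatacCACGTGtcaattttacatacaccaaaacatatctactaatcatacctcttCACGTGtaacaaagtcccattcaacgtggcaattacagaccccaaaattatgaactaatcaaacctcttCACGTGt

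Among the 4 transport proteins, AT1G66760 and ZF14 belong to the MATE efflux family, which exports small molecules across membranes. AT1G66760 had the largest mean change of the 63 at 1 h (2.36 in Col and 2.05 in Ler) and read 9.3, 8.71 and 9.29 CPM at 0 h, 38.1, 73.7 and 40.7 at 1 h and 12.3, 10.3 and 14.4 at 2 h in Col. AT1G66760 in Ler read 6.45, 6.34 and 8.52 CPM at 0 h, 30.5, 36.7 and 30.5 at 1 h and 8.1, 9.33 and 7.7 at 2 h. The times did not overlap at 1 h, and in Col 2 h remained above 0 h. ZF14 read 6.23, 4.94 and 5.63 CPM at 0 h, 14, 35.1 and 12.4 at 1 h and 3.95, 4.16 and 4.13 at 2 h in Col, where 2 h fell below 0 h in all libraries. ZF14 in Ler read 3.49, 1.77 and 2.8 CPM at 0 h, 12.5, 14.1 and 9.17 at 1 h and 2.61, 3.11 and 2.48 at 2 h.

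UCP5, a mitochondrial dicarboxylate carrier, read 33.5, 35 and 36.4 CPM at 0 h, 72.1, 134 and 68 at 1 h and 37.6, 34.7 and 34.9 at 2 h in Col. UCP5 in Ler read 17.8, 19.5 and 18.6 CPM at 0 h, 51.8, 57.2 and 36.1 at 1 h and 19.8, 20.7 and 18.7 at 2 h. It was lower in Ler at every time, and its changes at 1 h were 1.36 and 1.33. AT5G02170, of an amino acid transporter family, averaged 10.6 ± 4.79, 36.2 ± 21.9 and 14.6 ± 4.97 CPM at 0, 1 and 2 h in Col (SD, n = 3), and its 1 h and 2 h libraries overlapped in both ecotypes.

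Enzymes of membrane lipids were represented by 4 genes. FAD7, the plastid desaturase that makes the trienoic fatty acids from which jasmonate is built, read 20.9, 23.2 and 22.9 CPM at 0 h, 45.4, 104 and 44.1 at 1 h and 30.5, 28.2 and 31.4 at 2 h in Col. FAD7 in Ler read 25.6, 26.3 and 28.3 CPM at 0 h, 61, 88.5 and 55.9 at 1 h and 31.3, 42.2 and 32.8 at 2 h. The 1 h libraries were above all others in both ecotypes, and those at 2 h stayed above 0 h in both. MGD1, which makes the main galactolipid of plastid membranes, read 17.6, 17 and 14.2 CPM at 0 h, 27.4, 78.7 and 27.9 at 1 h and 20.7, 21 and 19.5 at 2 h in Col. MGD1 in Ler read 18.4, 20.2 and 20.5 CPM at 0 h, 40.7, 66.5 and 31.1 at 1 h and 20.2, 25.7 and 17.3 at 2 h. AtIPCS1, an inositol phosphorylceramide synthase of sphingolipid metabolism, averaged 16.5 ± 3.23, 52.6 ± 14.3 and 17.2 ± 3.16 CPM in Col and 16.2 ± 3.45, 67.3 ± 15.1 and 20.8 ± 5.19 in Ler (SD, n = 3). The ceramidase AT2G38010 changed by 1.35 in Col and 1.03 in Ler at 1 h.

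Cell wall and glycosylation genes also numbered 4. PME1, a pectin methylesterase, read 75.2, 132 and 81.2 CPM at 0 h, 149, 385 and 181 at 1 h and 88.6, 104 and 97.7 at 2 h in Col. PME1 in Ler read 102, 106 and 85.1 CPM at 0 h, 268, 333 and 196 at 1 h and 86, 123 and 88.7 at 2 h, and at 2 h its mean change was 0.01 in Col and 0.03 in Ler. UGT76E2, a glycosyltransferase, read 7.76, 5.74 and 5.84 CPM at 0 h, 12.4, 30.2 and 8.68 at 1 h and 5.07, 7.74 and 4.82 at 2 h in Col. UGT76E2 in Ler read 8.12, 7.57 and 5.6 CPM at 0 h, 23.9, 30.4 and 14 at 1 h and 7.62, 10.5 and 9.81 at 2 h. AT3G49220, annotated in the pectin methylesterase inhibitor superfamily, and the fucosyltransferase-type AT5G65470 changed at 1 h by 1.15 and 1.42 in Col and by 1.12 and 1.33 in Ler.

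Other enzymes, proteases and inhibitors were 5. CT-BMY, a plastid beta-amylase of starch breakdown, was at or under 3 reads in all 6 libraries at 0 h and read 0.0389, 4.27 and 0.478 CPM in Col and 1.59, 2.13 and 0.856 in Ler at 1 h. Its Col rise rested on replicate 2, while the 3 Ler libraries were all above 0 h. AT4G10500 (DLO1), an oxygenase that inactivates the defence hormone salicylic acid, read 2.14, 16.1 and 2.49 CPM in Col and 2.69, 5.11 and 1.71 in Ler at 1 h, from 1.28, 2.05 and 1.45 and 0.971, 1.12 and 0.96 at 0 h. The serpin AT2G26390, the subtilase AT1G32970 and AT5G38710, annotated as a methylenetetrahydrofolate reductase family protein, changed at 1 h by 1.46, 1.16 and 1.3 in Col and by 1.96, 1.61 and 1.03 in Ler.

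The other 17 genes have no role assigned here, and their changes at 1 h ran from 1.07 to 2.48 in Col and from 1.05 to 2.44 in Ler. AT1G56660, annotated as a MAEBL domain protein, read 81.7, 101 and 52.2 CPM at 0 h, 205, 387 and 158 at 1 h and 76.4, 95.7 and 46.2 at 2 h in Col. AT1G56660 in Ler read 64.4, 22.9 and 25.4 CPM at 0 h, 325, 177 and 122 at 1 h and 54.8, 45 and 39.3 at 2 h. Its libraries differed widely within each time, yet those at 1 h were above the others. AT1G14780, which carries the membrane attack complex and perforin domain of pore-forming proteins, averaged 19.2 ± 4.17, 69.8 ± 26.7 and 19.1 ± 3.06 CPM in Col and 21.6 ± 3.18, 84.6 ± 28.8 and 29.7 ± 1.18 in Ler (SD, n = 3). AT5G54300, a DUF761 protein, read 8.1, 4.1 and 4.01 CPM at 0 h, 21.2, 72.7 and 10.0 at 1 h and 3.81, 9.09 and 6.1 at 2 h in Col. AT5G54300 in Ler read 5.01, 2.72 and 2.53 CPM at 0 h, 7.59, 13.9 and 7.06 at 1 h and 2.35, 5.1 and 3.87 at 2 h so that its changes at 1 h were 2.48 in Col and 1.25 in Ler. For 9 genes the changes of the ecotypes at 1 h were over 0.5 apart, the widest being AT1G35625 with 2.40 in Col and 1.04 in Ler.

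AT1G22830, a tetratricopeptide repeat protein, had the smallest ratio of highest to lowest 1 h library in Col among genes of at least 5 CPM at 1 h in both ecotypes, at 17.8, 22.7 and 17.9 CPM. AT5G08500, a CLPTM1-type membrane protein, and AT5G47740, of the adenine nucleotide hydrolase superfamily, read 69.9, 75.6 and 68.1 and 76.6, 43.4 and 52.4 CPM in Ler at 1 h, from 21.9, 24.9 and 25.8 and 40.1, 15.8 and 17.8 at 0 h. AT1G55525, a noncoding RNA, was at or under 3 reads in all 0 h libraries and read 0.467, 2.6 and 0.342 CPM in Col and 1.88, 1.96 and 0.428 in Ler at 1 h. The transcribed pseudogene AT5G09710 read 3.89, 11.9 and 6.32 and 7.3, 13.2 and 5.99. AT1G19020 overlapped between all times in both ecotypes, with 56.2, 44.9 and 23.6 CPM in Col and 29.5, 13.9 and 9.67 in Ler at 1 h against 27.2, 10.8 and 15.3 and 13, 4.74 and 6.18 at 0 h. The remaining genes without a role, AT1G48330, AT3G03280, AT3G11402, AT3G50800, GILP, AT2G25130, AT5G15190 and AT5G65300, lay within the ranges above.

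The 1 h libraries of a group were unequal for most of the genes. In Col, replicate 2 was the highest of 3 for 61 of the 63 genes, and in Ler for 46, all of which were among the 61. Of the 18753 features with a mean of at least 1 CPM, replicate 2 was the highest for 28.8% in Col and 40.4% in Ler. Of the other 368 features that rose in both ecotypes, it was the highest for 82.9% in Col and 54.9% in Ler. The ratio of the highest to the lowest 1 h library had a median of 2.67 in Col and 1.75 in Ler. A rule on means admits more easily a gene that is high in 1 library, so this spread is a description of the chosen genes.

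The sums of shoot markers in these libraries were 68.9, 34.3 and 32.6 CPM in Col and 74.6, 34.6 and 55.6 in Ler, and those of mature root markers 634, 455 and 405 and 437, 294 and 345. Replicate 2 was the middle library for both sums in Col, and the lowest for both in Ler. Without Col replicate 2 at 1 h, 29 features met the rule. Without replicate 2 at 1 h in either ecotype 28 features met it, 26 of them among the 63. All 63 were then still above 0 at 1 h in both ecotypes, with medians of 0.98 in Col and 1.1 in Ler, though AT1G35625 was at 0.008 in Ler. The rule used the remaining libraries too, so nothing is read from this. Leaving out each of the 18 libraries in turn, AtIPCS1, ZF14, PIP5K1, AT4G39780, AT1G10650 and AT1G22830 met the rule every time.

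**Figure D4:**
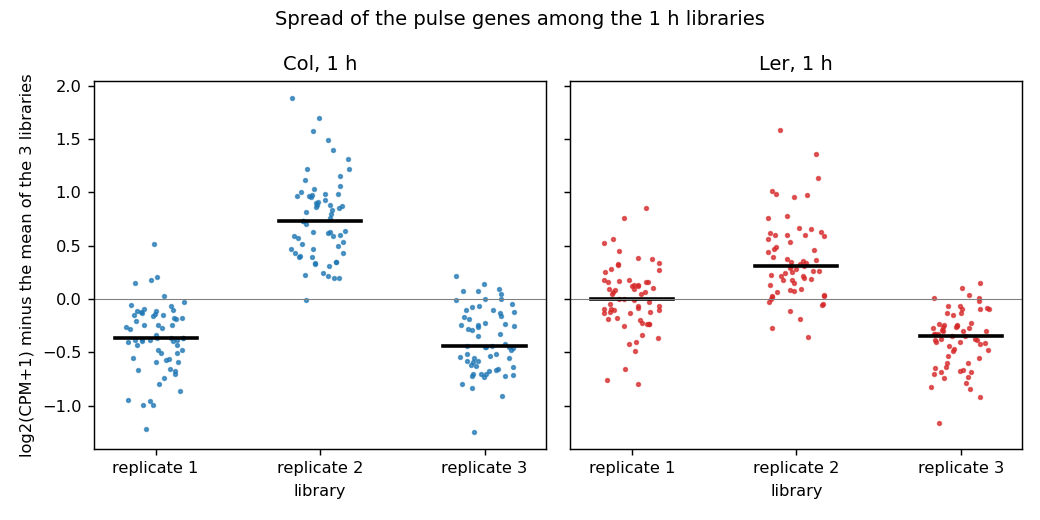
Each point is a pulse gene, placed by its log2(CPM + 1) in a 1 h library minus the mean over the 3 libraries of that ecotype; black lines are medians. The points of Col replicate 2 lie above 0 for nearly all genes (median 0.74), those of Ler replicate 2 for most (median 0.30), and those of replicate 3 mostly below.

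The difference in level between Ler and Col was not itself a limit of the rule and was tested. The rule is not independent of it, since a rise in both ecotypes shuts out features near 0 in either at 1 h. The lowest 1 h mean of the 63 was 1.14 CPM in Col and 1.42 in Ler. Averaged over the 3 times, edgeR's quasi-likelihood test called 14 of the 63 genes, or 22.2%, with 6 higher and 8 lower in Ler, against 32.7% of all features tested. At 0 h it called 2 (17.7% of all features), at 1 h 3 (14.0%) and at 2 h 4 (15.8%). The share of the 63 was below that of all features each time, but this difference was not tested. Nothing is read from it, since all features include those near 0 in 1 ecotype. The Ler and Col libraries did not overlap for 15 genes at 0 h (33.6% of features), 4 at 1 h (28.3%) and 12 at 2 h (32.6%). At 1 h, Ler was below Col in all 4.

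The direction of these differences varied with the time and with single libraries. At 0 h the median log2 difference of the 63 was -0.13, with 24 above 0, and at 2 h 0.15, with 39 above 0. For all features these medians were 0.009 and -0.0002. The median of the 63 was above 0 in 0 of the 18 fits without 1 library at 0 h, and in 17 at 2 h. All 3 genes called at 1 h, UCP5, AT1G66760 and AT5G54300, were lower in Ler, and the median log2 difference of the 63 was -0.11, with 23 above 0. Without Col replicate 2 at 1 h the test called 3 higher and 1 lower in Ler, and the median was 0.41, with 48 above 0. Of all 20790 features in that fit, 1258 were called higher and 1225 lower. Without Ler replicate 3 at 1 h the test called 0 of the 63 higher and 1 lower, with a median of 0.12. Of all 20818 features there, 1094 were called higher and 1022 lower. Averaged over times, the 6 higher and 8 lower became 11 higher and 5 lower without Col replicate 2 at 1 h, and the median went from -0.04 to 0.15. That fit called 3382 of all 20790 features higher and 3183 lower. The split was 5 and 5 without Ler replicate 3 at 1 h and 6 and 6 without Ler replicate 1 at 2 h, and in the other 15 fits without 1 library more genes were lower than higher. Over all features, the fit without Ler replicate 3 at 1 h called 3112 higher and 3013 lower. The fit without Ler replicate 1 at 2 h called 3272 higher and 3181 lower.

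Lower in Ler was UCP5, whose log2 difference averaged over times was -0.95 (SE 0.12, edgeR adjusted p 1.61e-05), and the libraries given above do not overlap at any of the 3 times. ZF14 was lower by a log2 difference of -0.86 (SE 0.20, edgeR adjusted p 0.00302), with Ler below Col in all libraries at 0 h and 2 h and overlap at 1 h. AT5G54300 differed by -1.15 (SE 0.34, edgeR adjusted p 0.0171), although its libraries overlapped at each time. AT1G19020 differed by -1.12 (SE 0.38, edgeR adjusted p 0.0349), a call that held in 8 of the 18 fits without 1 library and was lost without replicate 2 at 1 h (adjusted p 0.0916). The other genes called lower were AT1G48330 (-0.60), AT1G66760 (-0.57), AT2G26390 (-0.56) and AT3G03280 (-0.46), of which AT2G26390 held in 6 and AT3G03280 in 10 of those 18 fits.

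Higher in Ler was SRS3, with a log2 difference of 1.23 (SE 0.31, edgeR adjusted p 0.0063), the libraries being separate at 0 h and 2 h and overlapping at 1 h. AT5G38710 differed by 0.92 (SE 0.23, edgeR adjusted p 0.00492) and read 8.49, 4.73 and 7.38 CPM at 0 h, 16, 29 and 9.91 at 1 h and 6.11, 7.17 and 7.02 at 2 h in Col. In Ler AT5G38710 read 20.9, 7.39 and 12.4 CPM at 0 h, 35.1, 31.2 and 20.0 at 1 h and 17.3, 14.6 and 17.2 at 2 h, without overlap at 2 h. AT1G64380 differed by 0.81 (SE 0.27, edgeR adjusted p 0.0314) and held in 11 of the 18 fits without 1 library. The pseudogene AT5G09710 differed by 0.80 (SE 0.27, edgeR adjusted p 0.0322) and held in 8. HAT9 differed by 0.62 (SE 0.17, edgeR adjusted p 0.0108) and held in all 18, and AT5G65470 by 0.34 (SE 0.12, edgeR adjusted p 0.0438) and held in 6. Whether Ler reads were aligned to a Ler sequence is not given in the sources used here, and the part of sequence differences in these values was not tested.

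**Figure D5:**
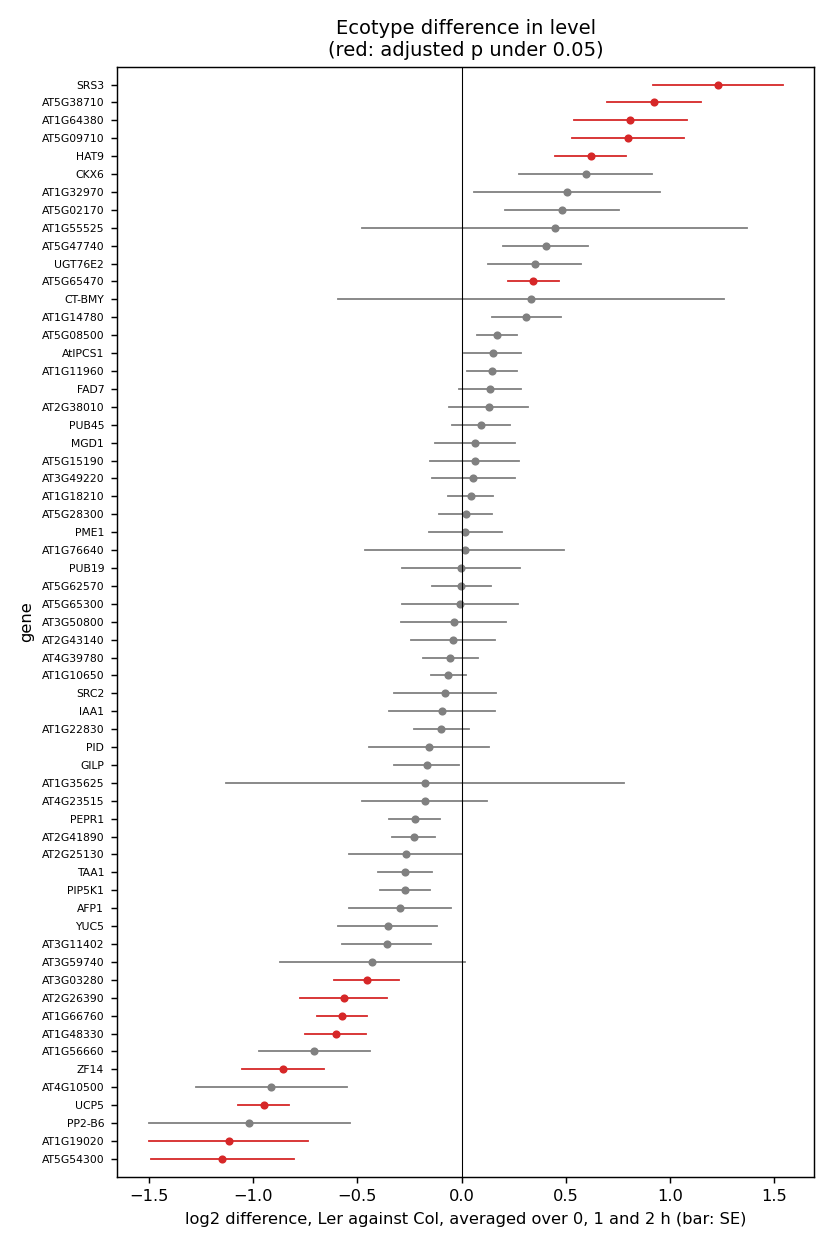
Points are log2 differences of Ler against Col averaged over 0, 1 and 2 h in edgeR, bars are 1 SE, and red marks an adjusted p under 0.05. AT1G70130 and AT5G07310, with 0 reads at 0 h, have no usable SE and are not drawn; the 14 red genes lie on both sides of 0.

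Gene lists were matched by symbol or synonym in the RefSeq table, so family members without such a name are not counted, among them AT4G39780 and AT1G64380 for the ERF and DREB list and AT2G43140 for the bHLH list. In none of these lists were most genes tested called higher at 1 h. Averaged over ecotypes at 1 h, edgeR called 5 of 14 calmodulin-like genes tested higher and 1 lower (CML39 is one of the 63), 12 and 5 of 50 ERF and DREB genes (ERF115), 8 and 6 of 36 PUB and ATL ubiquitin ligases (PUB45 and PUB19), 13 and 9 of 53 UGT genes (MGD1 and UGT76E2) and 3 and 2 of 9 auxin synthesis genes (TAA1 and YUC5). Of all features tested, 9.76% were called higher and 10.0% lower. The median log2 changes were -0.20, 0.24, 0.00, 0.34 and -0.06, against 0.02 for all features. Lists in which no name matched one of the 63 gave 9 higher and 1 lower of 28 CPK kinases, 18 and 9 of 77 NAC genes, 12 and 17 of 78 MYB genes, 4 and 2 of 26 bHLH genes, 3 and 2 of 8 PP2C genes, 5 and 3 of 22 expansins and 7 and 9 of 35 SAUR genes. The others gave 6 and 5 of 46 MAP kinase cascade genes, 23 and 33 of 165 cytochrome P450 genes, 1 and 1 of 11 CCCH zinc fingers, 1 and 2 of 6 BT and TAZ genes, 1 and 1 of 11 glutaredoxins, 1 and 0 of 4 TCH genes, 0 and 0 of 2 CAF1 deadenylases, and 4 and 3 of 19 jasmonate-responsive genes.

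In the genome the 63 genes, all matched to RefSeq by locus, were spread over chromosomes 1 to 5 (24, 10, 8, 6 and 15 genes), and none lay next to another. Of the 61 protein-coding ones, 16 or 26.2% had 1 exon, against 15.9% of those tested, and the median was 2 exons against 4. For 14 genes another listed gene overlapped, on the opposite strand for 9. The partners changed at 1 h by -0.62 (RDR1, opposite AT1G14780, in Ler) to 0.97 (RABA6b, on the same strand as AT1G18210, in Col). Since the strand setting of the counting is not given in the sources used here, values of these 14 genes are less certain. No gene had a near-identical copy elsewhere.

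In the 250 bases before the gene start, a W-box (TTGACC or TTGACT) was found in 25 of the 63 genes (39.7%), against 28.5% of 20579 features tested with such a stretch. TTGACC alone was found in 13 (20.6% against 12.3%) and TTGACT in 13 (20.6% against 19%). The G-box was found in 8 (12.7% against 7.16%), the dehydration response core in 10 (15.9% against 12.9%), the CAMTA-type site in 3 (4.76% against 2.81%) and the GCC box in 0 (against 1.95%). No matches of different motifs overlapped. These are matches of letters on both strands and no test was made.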

How the data were processed

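Poly(A) RNA of root apices was sequenced in 18 libraries. The authors deposited raw read counts per feature, 1 table per library, listing 33602 features for Col and 32852 for Ler; those in all 18 were used. TopHat2, Bowtie2 and TAIR10 are named in the submitters' processing notes. The counting tool, annotation, strand setting and handling of reads with several matches are not given in the sources used here.

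From the counts, CPM were computed as count over library total times 1000000, and the rule of the report was applied with a pseudocount of 1. The members, gene lists, roles and motifs were chosen with earlier results of these data known, and the auxin synthesis list and the roles after the members were seen. Tests used edgeR 4.0.16 (R 4.3.3, limma 3.58.1) on the counts as deposited: filterByExpr (at least 10 counts in enough libraries, 15 in total), TMM scaling, 1 mean per group over all 18 libraries, quasi-likelihood F-tests, and Benjamini-Hochberg adjustment over 20599 features with a threshold of 0.05. Fold changes from edgeR are TMM-scaled, CPM are not. The SE is the absolute log2 fold change over the square root of F. The test of Ler against Col averaged over times was tried on simulated counts with independent libraries. It recovered 89 of 100 features changed 2-fold and 99 of 100 changed 4-fold, with 9 false calls. Other comparisons, and deviations shared by equal replicate numbers, were not simulated. The floors cover counting error only, whereas the SD and SE values reflect the spread between libraries.

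Genes named by rule were the 10 with the largest mean change and the 5 with the highest CPM at 1 h, those in the lists, up to 4 called in each direction between ecotypes, those nearest to the limits, and the 2 with the smallest and largest spread at 1 h per ecotype; others were added to account for each role. Alternatives were DESeq2 1.42.0, RLE size factors, no filter, the replicate number as a block, each library left out, and other settings of the rule. RefSeq TAIR10.1 gave symbols, exons and sequences.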

Additional observations from a re-analysis of the deposited data

How the results depend on the processing

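The number of features meeting the rule was 40 with group medians in place of means, 17 with limits of -0.25 and 0.25 at 2 h, and 28 without replicate 2 at 1 h in both ecotypes (an alternative chosen after seeing the data). With each library left out in turn it was 29 to 78. It was 59 with TMM-scaled totals, 71 and 62 with pseudocounts of 0.5 and 2, and 63 with totals over the common features. Of the 63 genes, the count called between Ler and Col averaged over times was 8 to 16 with each library left out, 8 without Col replicate 1 at 0 h or Ler replicate 2 at 2 h. At 0 h it was 5 with DESeq2, 6 without replicate 2 at 1 h and 1 to 6 with each library left out, at 1 h 1 without replicate 2 at 1 h and 1 to 5, and at 2 h 2 to 6. The count called at 1 h was 30 in Col without replicate 2 at 1 h in both ecotypes, and 29 to 61 in Col and 31 to 55 in Ler with each library left out. At 2 h it was 1 in Col and 1 in Ler without replicate 2 at 1 h, 2 in Ler with DESeq2, and 0 to 2 in each ecotype with a library left out. The share of all features called in the same fits is not given here, so these counts show only how far they moved. Without Col replicate 2 at 1 h the genes called between ecotypes turned from mostly lower to mostly higher in Ler, with 11 higher and 5 lower averaged over times and 3 higher and 1 lower at 1 h. No gene named by rule had a called ecotype difference averaged over times, or a called change at 1 h, that turned under the alternatives run. Where a value moved the cause was not tested.

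Equal replicate numbers are not said to share plants or harvests. Deviations from group means correlated above 0.1 in 41 of 45 same-number pairs (mean 0.352). The mean for different numbers, -0.174, adds nothing, since the deviations of each group's 3 libraries sum to 0. Each of the 18 libraries correlated best, on average, with its own number, a hint from the data only. With the replicate block, edgeR called 19 of the 63 genes between ecotypes averaged over times (43.4% of all features), 8 at 0 h (30.1%), 8 at 2 h (25.7%), and 1 in Col (22.1%) and 3 in Ler (8.86%) at 2 h against 0 h. Depth limits the genes with at most 3 reads per library at 0 h, 4 in Col and 5 in Ler, whose changes on the scale of the rule, such as the 1.07 of AT1G55525 in Col, depend on the pseudocount.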
